A study of Mus musculus with 11 samples.

Results

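Small cuts in the facial skin and transection of the infraorbital nerve were compared in mouse trigeminal ganglion nuclei that carried an injury profile. A nucleus was placed in the profile when the UMIs (unique molecular identifiers, which count captured RNA molecules) of Atf3, Sema6a, Sprr1a, Itgb6, Flrt3 and Gadd45a summed to at least 4, with at least 2 of the 6 genes detected. This gave 124 of 8660 nuclei after cuts and 647 of 4611 nuclei after transection, 771 of 13271 nuclei in all. The whole series holds 40359 nuclei.

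All libraries came from mice older than 6 weeks and the 2 compared here from C57BL mice, whose ganglia were taken 2 days after injury (the day of the cuts is given by the methods of the study, not by the sample label). The label of the cuts library gives 3 cuts on each cheek and 2 on the forehead. Infraorbital transection (IOT) cut 3 superficial branches of the nerve without ligating them, and the ganglion of the cut side was taken. Each library is 1 pool of 10 mice of both sexes, enriched for NeuN-positive neuronal nuclei, so no test between the injuries was possible and every interval given here is a 95% interval for counting error only. IOT at days 7, 21 and 75 (C57BL, 10, 10 and 6 mice), lesions from chronic scratching (an FVBN/C57BL/129 mix, 10 mice carrying the Fos-tTA and tetO-mCherry-2A-Gnaq transgenes) an uninjured 10x control (C57BL, 10 mice) and an uninjured Drop-seq control (C57BL, 16 mice, 4 libraries in 1 table) are set beside them.

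Somatosensory neurons of the trigeminal ganglion send 1 process to the skin of the face and another to the brainstem. When the peripheral axon is damaged, the cell body switches on stress and growth transcription factors such as ATF3, JUN and SOX11, raises neuropeptides and cytoskeletal genes used in regrowth, and lowers many receptors and channels of its normal identity. Skin cuts damage fine endings close to the target, whereas nerve transection damages axons in the nerve trunk.

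The injury profile was rarer after cuts. It took 1.43% of nuclei after cuts (1.19 to 1.70%, 124 of 8660, exact binomial interval) and 14.03% after IOT at day 2 (13.04 to 15.07%, 647 of 4611), a ratio of 9.80. With a stricter rule of at least 8 UMIs over 3 genes the shares were 0.450% and 8.33%, a ratio of 18.5. By the main rule 0.343% of nuclei were marked in the uninjured 10x control (0.192 to 0.566%), whose table does not list Sprr1a, and 0.409% in the Drop-seq control (0.218 to 0.698%). Depth acts on such a rule: the median nucleus had 1928 UMIs in the cuts library and 3323 in the IOT day 2 library. With every nucleus thinned at random to 1500 UMIs before the rule was applied, the shares were 0.820% after cuts (0.607 to 1.08%, 49 of 5978) and 6.25% after IOT (5.56 to 6.98%, 288 of 4611). In the thinned 10x control it was 0 of 4368 nuclei, which allows a share of up to 0.0687% when 3 counts are taken as the limit of a count of 0. Every IOT day 2 nucleus reached this depth, and cuts nuclei under it were left out.

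**Figure D1:**
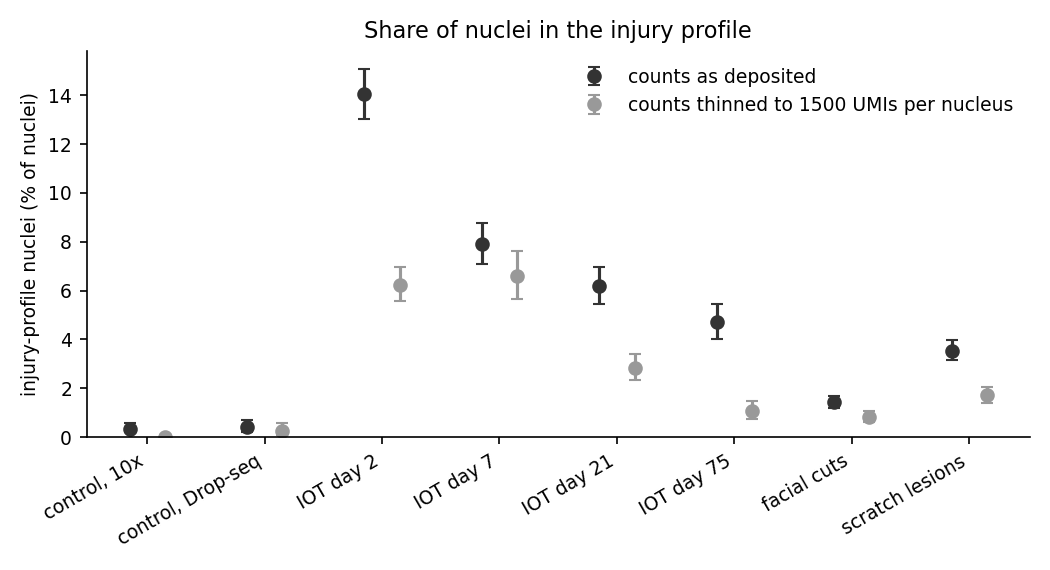
Injury-profile nuclei as a percentage of nuclei in each of the 8 count tables, on counts as deposited (dark) and on counts thinned to 1500 UMIs per nucleus (grey), with 95% binomial intervals for counting error. The cuts library, at 1.43%, lies above both controls and below every other injury library on counts as deposited.

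The same pool of barcodes is used for every 10x library, and 53 barcode sequences occurred in both tables. Within the profile, a cuts nucleus had a median of 6 UMIs over 3 of the 6 genes, and an IOT nucleus 10 UMIs over 4 genes. All 6 genes were detected in 4 cuts nuclei and 51 IOT nuclei. At the edge of the rule, 37 cuts nuclei and 68 IOT nuclei stood at exactly 4 UMIs, while 40 and 103 nuclei with 2 or more genes stood just outside it at 3 UMIs. Sox11, an injury gene outside the rule, was at 360 CPM (UMI counts scaled to a sum of 1000000) in the cuts nuclei just inside (265 to 477) and 240 in those just outside (171 to 327). After IOT these values were 229 (182 to 285) and 169 (136 to 207).

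All levels that follow are CPM over the profile nuclei of a library after thinning to 1500 UMIs per nucleus, which left 111 cuts nuclei (166500 UMIs) and 647 IOT day 2 nuclei (970500 UMIs). In the cuts nuclei 1 UMI is worth 6.01 CPM. The injury-profile nuclei were set against the nuclei of the same library with 0 UMIs of all 6 genes, called rule-negative nuclei here, 4494 after cuts and 2282 after IOT. Thinning left out 2352 of 6846 rule-negative and 13 of 124 profile nuclei after cuts, and 0 of either after IOT. The rule-negative reference of the cuts library thus holds only its deeper nuclei.

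The 6 genes that chose the nuclei were weighted differently after the 2 injuries. They are described without a test, since the nuclei were selected on them, and no rule-negative level can be subtracted from them because it is 0 by construction. Itgb6, the beta subunit of an epithelial integrin that activates TGF-beta (chromosome 2 from 60598292 to 60722643 in mm10), stood at 72.1 after cuts (37.2 to 126, 12 UMIs) and 427 after IOT at day 2 (386 to 470). It was at 252, 192 and 515 after IOT at days 7, 21 and 75, and at 583 after scratch lesions. The cuts library was thus the lowest of the 6 injury libraries for Itgb6, and its interval overlapped none of the others. Itgb6 had a UMI in 9.01% of the thinned cuts nuclei (4.41 to 15.9%) and 41.4% of the IOT nuclei (37.6 to 45.3%). Sema6a, a transmembrane semaphorin that guides axons, was at 541 after cuts (435 to 664) and 1227 after IOT (1158 to 1299), in 49.5% and 77.1% of nuclei. Later IOT libraries stood at 1118, 899 and 655 for Sema6a and the scratch lesions at 640 (564 to 722), so the cuts overlapped IOT day 75 and the scratch lesions.

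Sprr1a, a small proline-rich protein induced in regenerating axons (chromosome 3 from 92483952 to 92485895), and Gadd45a, a stress protein that binds DNA repair and cell cycle factors (chromosome 6 from 67035096 to 67037457), went the other way. Sprr1a was at 360 after cuts (275 to 464, 60 UMIs) and 107 after IOT at day 2 (87.6 to 130, 104 UMIs), but at 376 after IOT at day 7 (320 to 440), and the intervals of day 7 and the cuts overlapped. Gadd45a was at 414 after cuts (322 to 524) and 135 after IOT at day 2 (113 to 160). The 4 IOT libraries ranged from 89.7 to 229 for Gadd45a, all with intervals below that of the cuts, and the scratch lesions stood at 291 (241 to 349). The stress transcription factor Atf3 was at 450 after cuts (354 to 565) and 299 after IOT at day 2 (265 to 335), inside the IOT range of 133 to 635. Flrt3, an adhesion protein of axon growth, was at 402 (312 to 511) and 246 (216 to 280), above the IOT range of 117 to 246. With a rule that left out Itgb6, the log2 difference of Itgb6 was -2.91, where it was -2.57 with the full rule. The other 5 genes still choose the nuclei under that rule.

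**Figure D2:**
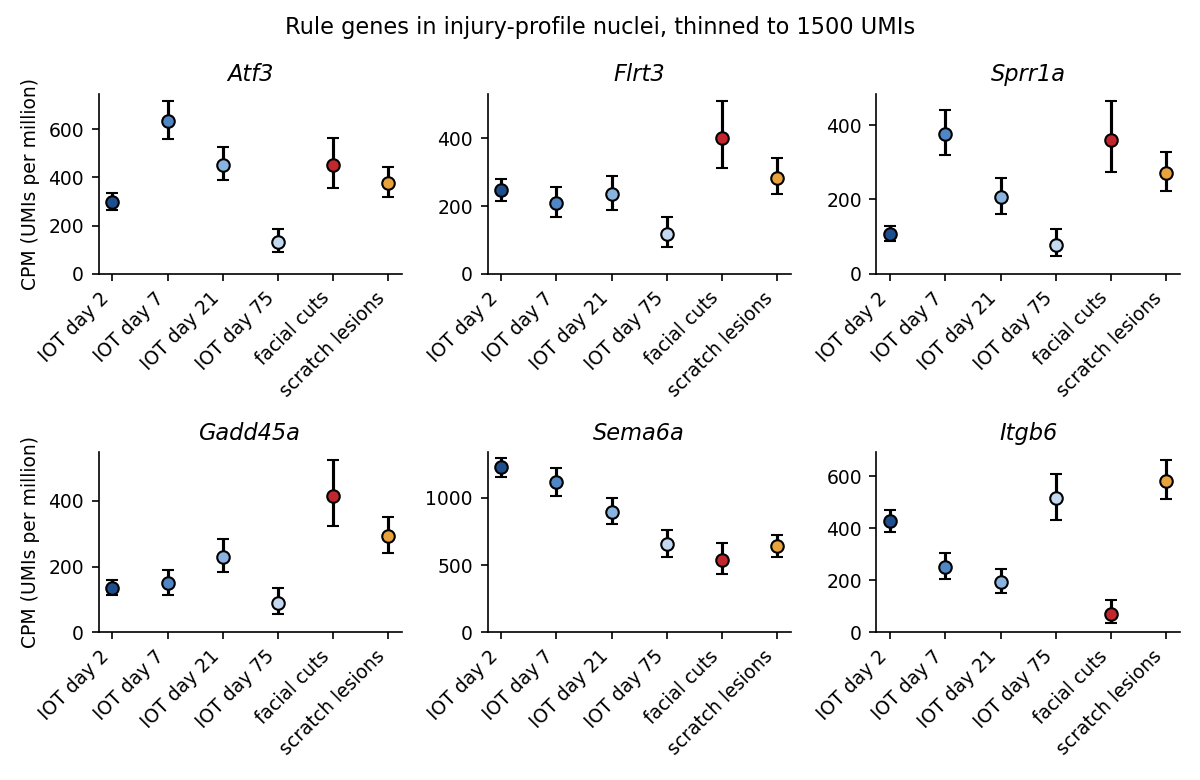
CPM of the 6 rule genes in injury-profile nuclei of the 6 injury libraries, after thinning to 1500 UMIs per nucleus, with exact 95% Poisson intervals for counting error. Itgb6 is lowest after facial cuts, at 72.1, and Gadd45a is highest there, at 414.

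Gene structure moved with this pattern. Gadd45a and Sprr1a span 2.36 and 1.94 kb, Itgb6 and Sema6a 124 and 133 kb, and Flrt3 and Atf3 20.6 and 47.7 kb. In rule-negative nuclei, the 527 tested genes under 10 kb had a median log2 difference of 1.24 (cuts over IOT day 2), the 847 genes of 10 to 30 kb 0.70, the 1421 genes of 30 to 100 kb 0.09 and the 1325 genes of 100 kb or more -0.39. The tables count reads in introns as well as exons. With the rule-negative difference subtracted from that of profile nuclei, the medians were 0.24, 0.18, 0.11 and 0.05 from short to long. Of genes under 10 kb 5.31% were then at least 2-fold higher after cuts and 1.14% lower. Of those of 100 kb or more 3.17% were higher and 5.06% lower, so the subtraction did not remove the whole trend. The part of gene length in the differences of the 6 rule genes, and of the genes described below, was not tested.

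The promoters of 2 genes higher after cuts (Sprr1a and Nts) and 2 lower (Itgb6 and Htr1f) are shown because Atf3 is among the rule genes and its protein binds AP-1 and CRE sequences with partners such as JUN. Each run is the 250 bases before a RefSeq start (GRCm38.p6), written 5′ to 3′ on the strand of the gene. Capitals mark TGACTCA or its reverse complement TGAGTCA, the AP-1 letters, searched on both strands together with the palindromic CRE letters TGACGTCA, which do not overlap them.
Sprr1a (chr3:92485882-92486131, minus strand): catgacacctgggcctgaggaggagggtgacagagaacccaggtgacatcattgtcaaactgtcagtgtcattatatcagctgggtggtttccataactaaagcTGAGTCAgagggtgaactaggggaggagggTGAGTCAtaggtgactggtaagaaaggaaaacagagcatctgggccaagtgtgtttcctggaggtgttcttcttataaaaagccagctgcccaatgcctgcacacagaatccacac
Nts (chr10:102490419-102490668, minus strand): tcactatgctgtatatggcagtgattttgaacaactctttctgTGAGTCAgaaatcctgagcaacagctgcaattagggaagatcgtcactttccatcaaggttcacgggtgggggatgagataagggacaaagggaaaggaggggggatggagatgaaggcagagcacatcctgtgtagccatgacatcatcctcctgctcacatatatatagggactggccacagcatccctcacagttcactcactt
Itgb6 (chr2:60722604-60722853, minus strand): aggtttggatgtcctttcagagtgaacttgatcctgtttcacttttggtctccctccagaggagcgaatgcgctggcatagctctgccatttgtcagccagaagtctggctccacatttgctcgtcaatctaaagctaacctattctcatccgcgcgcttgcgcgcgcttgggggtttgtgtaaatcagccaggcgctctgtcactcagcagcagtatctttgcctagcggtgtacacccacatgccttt
Htr1f (chr16:65105785-65106034, minus strand): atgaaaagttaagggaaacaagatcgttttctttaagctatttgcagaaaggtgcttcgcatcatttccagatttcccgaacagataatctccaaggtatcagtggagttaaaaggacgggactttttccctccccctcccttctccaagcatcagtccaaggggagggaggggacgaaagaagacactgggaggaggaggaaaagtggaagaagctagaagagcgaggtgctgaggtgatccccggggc
Sprr1a held 2 AP-1 matches and Nts 1, and neither Itgb6 nor Htr1f held a match in this window. AP-1 letters were in 4.46% of all 32851 RefSeq promoter windows of this length and CRE letters in 1.55%. Of 58 genes searched, namely 5 rule genes and those described below as past 2-fold under all depth settings, 47 had a window. AP-1 letters were found before 3 of them (Sprr1a, Nts and 1 start of Palld) and CRE letters before 0. Palld was lower after cuts, and Gadd45a, Brinp3 and Kcnc4, which were higher, held no match. The genes shown therefore do not stand for all 47.

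Differences between the injury-profile nuclei of the 2 libraries were in large part shared by their rule-negative nuclei. Over the 4219 genes at 50 CPM or more on average in the profile nuclei, the rule genes left out, the log2 difference between the libraries in profile nuclei correlated with that in rule-negative nuclei (Pearson r = 0.88 across genes, which share the same 2 libraries and are not independent). Without subtraction 25.1% of these genes were at least 2-fold higher after cuts and 11.6% at least 2-fold lower. After the rule-negative difference was subtracted, 149 genes (3.53%) were at least 2-fold higher after cuts and 145 genes (3.44%) at least 2-fold lower, with a median over all genes of 0.12 (log2). Many of these calls rest on few UMIs: only 50 of the 149 and 70 of the 145 were called again in a second random draw of the UMIs, and of the 804 genes at 200 CPM or more, 4 were higher and 18 lower. Therefore the genes described in detail are those past 2-fold in the same direction under 4 depth settings, namely both draws at 1500 UMIs, 1000 UMIs per nucleus, and no thinning. This choice was made after the values were seen. Of 3693 genes measured under all 4 settings, 39 (1.06%) were lower after cuts and 14 (0.379%) higher.

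**Figure D3:**
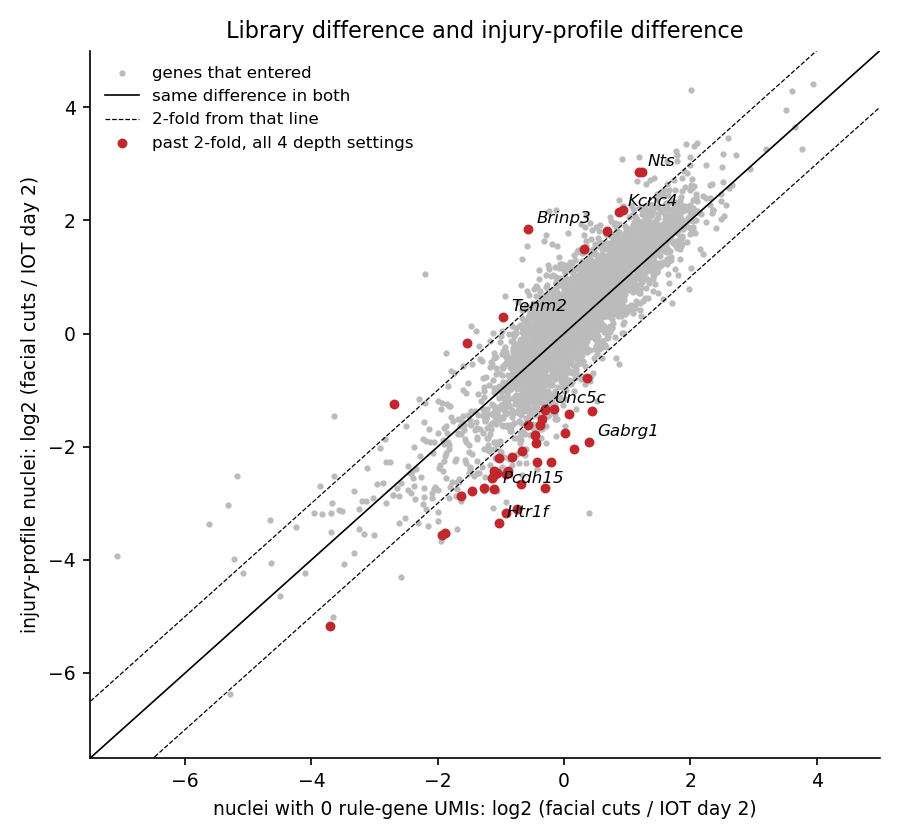
Log2 difference of facial cuts over IOT day 2 in injury-profile nuclei (vertical axis) against the same difference in nuclei with 0 rule-gene UMIs (horizontal axis) for 4219 genes. Most genes follow the solid line of equal differences. Red points are the genes past 2-fold under all 4 depth settings and not at the floor, and they lie outside the dashed lines.

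Of the 39 genes lower after cuts, 2 (Ecsit and Plk4) were at the floor of 3 UMIs in the cuts nuclei and are given no level here. Of all 39, 37 were higher in profile than in rule-negative nuclei of the IOT day 2 library, and 25 were lower in profile than in rule-negative nuclei of the cuts library, counts that the choice of these genes favours. The group included receptors and adhesion proteins of neurons. Htr1f, a serotonin receptor of trigeminal neurons (chromosome 16 from 64924729 to 65105854), was at 66.1 in cuts nuclei (32.98 to 118.2, 11 UMIs) and 676 in IOT day 2 nuclei (625 to 730, 656 UMIs). In the rule-negative nuclei it was at 124 and 255, and in those of the uninjured control at 207. The injury effect, the log2 ratio of profile to rule-negative nuclei within a library, was thus -0.91 after cuts, against 1.40, 1.60, 1.72 and 1.17 after IOT at days 2, 7, 21 and 75 and 0.20 after scratch lesions. Htr1f was lower after cuts than after any IOT time, and its subtracted difference was -2.32.

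Pcdh15, a protocadherin known from the tip links of hair cells (chromosome 10 from 73099342 to 74649737), was at 126 after cuts (78.1 to 193, 21 UMIs) and 852 after IOT at day 2 (795 to 912), with rule-negative levels of 55.8 and 121. Its injury effect was 1.18 after cuts and 1.64 after scratch lesions, and 2.61 to 3.06 in the 4 IOT libraries. Pcdh15 was therefore higher in profile nuclei in all 6 injury libraries, by a smaller step after both skin injuries. Gabrg1, a gamma subunit of GABA-A receptors (chromosome 5 from 70751047 to 70842617), had an injury effect of -0.33 after cuts (6 UMIs) and -1.90 after scratch lesions (3 UMIs), and of 1.95 to 2.51 in the IOT libraries. Levels of Gabrg1 in rule-negative nuclei lay between 20.2 and 46.9 in all 7 10x libraries, so both skin injuries stood near or under the uninjured level.

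The netrin receptor Unc5c (chromosome 3 from 141465216 to 141834924) was at 252 after cuts (182 to 341, 42 UMIs) and 636 after IOT at day 2 (587 to 688), with injury effects of -0.27 and 0.76. Its effect was 0.53 to 0.96 in the IOT libraries and -1.88 after scratch lesions. Palld, an actin scaffold of growing processes, was at 222 (156 to 306, 37 UMIs) against 567 (520 to 616), and its effect of 1.59 after cuts lay under the IOT range of 1.89 to 2.89. Etl4, the most abundant of the 39, was at 745 (619 to 888, 124 UMIs) against 2296 (2201 to 2393), with effects of 1.04 after cuts, 0.24 after scratch lesions and 1.42 to 2.15 after IOT. Pip5k1b, a kinase that makes the membrane lipid PIP2, was at 120 (73.4 to 186) against 553 (508 to 602). Cttnbp2, a partner of cortactin at synapses, was at 66.1 (32.98 to 118.2) against 319 (285 to 357). Folh1, a peptidase that releases glutamate, was at 24.0 (6.55 to 61.5, 4 UMIs) against 81.4 (64.4 to 101).

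In Ntm, Tenm1 and Slc4a10 the profile nuclei stood below the rule-negative level after cuts. Ntm, a membrane-anchored adhesion protein, was at 24.0 after cuts (6.55 to 61.5, 4 UMIs) and 206 after IOT (179 to 237), with injury effects of -2.34 and 0.01. At IOT days 7, 21 and 75 the effect of Ntm was -0.84, -0.66 and -0.19 and after scratch lesions -1.40, so it was below 0 in these libraries too. The teneurin Tenm1, which links synaptic partners, had effects of -2.10 and -0.77, and the bicarbonate transporter Slc4a10 of -0.79 and 0.37. Among the 37 genes not at the floor, 32 lay below the injury effect of all 4 IOT libraries, a position held by 17.8% of the 4219 genes, but the choice of a low value after cuts favours it. In 27 of the 39 the cuts nuclei held fewer than 10 UMIs, and in 14 the rule-negative nuclei of the 2 libraries already differed by 2-fold or more. Cinp, a partner of CDK2, was such a gene, with rule-negative levels of 23.9 in the cuts library and 311 in the IOT day 2 library. Among the nuclei with more UMIs of small-neuron-like I2 genes (35 after cuts), the subtracted differences of Unc5c, Palld and Gabrg1 were 0.15, 0.018 and 0.081. Gabrg1 held 6 UMIs over all cuts profile nuclei, so its value there lies at or near the floor.

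Of the 14 genes higher after cuts, 4 (Gm42831, Gm17058, Prss41 and Catsperd) had fewer than 3 UMIs in 1 of the 4 sums, which was set to the floor of 3 UMIs. For Gm17058, Prss41 and Catsperd this was the sum of the cuts profile nuclei, so their values carry no direction. For Gm42831 it was the cuts rule-negative sum (2 UMIs), and its profile nuclei were at 90.1 after cuts (50.4 to 149) and 43.3 after IOT (31.2 to 58.5). Of the 10 not at the floor, 8 lay above the injury effect of all 4 IOT libraries, beside 31.1% of all genes, a position that the choice of a high value favours. In 5 of the 14 the cuts nuclei held fewer than 10 UMIs. In 8 of the 14 the rule-negative nuclei of the 2 libraries already differed by 2-fold or more, in either direction. The 10 were led by Brinp3 and Nts. Brinp3, a neural gene induced by BMP and retinoic acid, was at 234 after cuts (167 to 320, 39 UMIs in 20 nuclei) and 64.9 after IOT at day 2 (49.9 to 83.1). Its injury effect was 2.08 after cuts, 0.16 after scratch lesions, and -0.34, 0.02, 1.45 and -1.35 after IOT at days 2, 7, 21 and 75. The cuts library had the highest effect of the 6 for Brinp3, although its level at IOT day 21 was as high, at 237 (191 to 292).

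Nts, which encodes the neuropeptide neurotensin (chromosome 10 from 102481756 to 102490486), was at 312 after cuts (233 to 410, 52 UMIs) and 43.3 after IOT at day 2 (31.2 to 58.5, 42 UMIs). At later IOT times Nts stood at 237, 443 and 218, and after scratch lesions at 296, so IOT day 2 was the library that stood apart. The injury effect of Nts was 4.55 after cuts, 2.89 after IOT at day 2 and 4.76 at day 7. Set against IOT day 7, the subtracted difference of Nts was -0.21, where it was 1.66 against day 2.

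Kcnc4, a fast potassium channel subunit (Kv3.4), had an injury effect of 0.44 after cuts and 0.37 after scratch lesions, and of -2.32 to -0.84 after IOT. Its level was 96.1 after cuts (54.9 to 156, 16 UMIs) and 21.6 after IOT at day 2 (13.4 to 33.1). Lgi3, a secreted protein of the synapse, was at 156 (102 to 229) against 21.6 (13.4 to 33.1), and the teneurin Tenm2 at 306 (228 to 403) against 250 (220 to 284). Tenm2 was below its rule-negative level in both, with effects of -0.34 after cuts and -1.60 after IOT at day 2. The others were the secreted factor Fam19a5, the actin regulator Coro6, the cullin regulator Cand1, the sulfotransferase Chst8 and 2310039L15Rik, with subtracted differences of 1.18, 1.25, 1.13, 1.37 and 1.45. Chst8 and 2310039L15Rik were not higher after cuts before subtraction. In profile nuclei Chst8 was at 54.1 after cuts (9 UMIs) and 60.8 after IOT, and 2310039L15Rik at 54.1 (9 UMIs) and 129. Their rule-negative levels were 44.1 and 128 for Chst8 and 5.93 and 38.6 for 2310039L15Rik, so their direction depends on those nuclei.

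**Figure D4:**
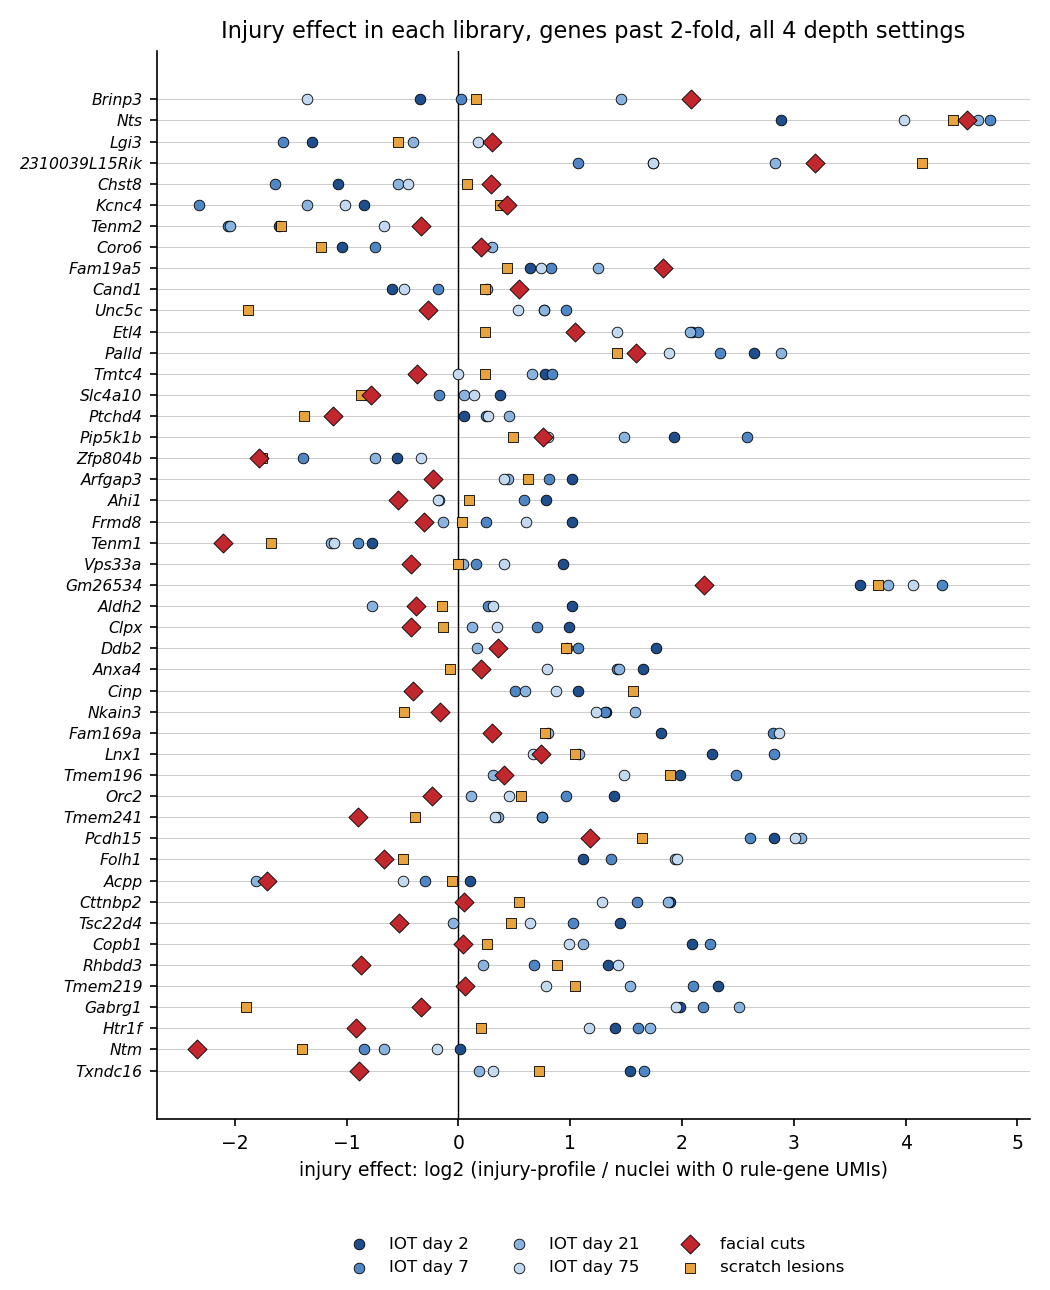
Injury effect (log2 of injury-profile over rule-negative nuclei) in the 6 injury libraries for the 47 genes past 2-fold under all 4 depth settings and not at the floor, ordered by the difference between facial cuts (red) and IOT day 2 (dark blue). For Gabrg1 the cuts value of -0.33 lies apart from the IOT values of 1.95 to 2.51.

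The shared injury genes that the rule did not use stood above rule-negative nuclei to a like extent after cuts and after IOT at day 2. Over the 26 measured genes of an induced list, drawn from genes of the study and earlier results on these libraries, the median injury effect was 2.11 after both injuries. Their median subtracted difference was 0.16, beside 0.12 over all genes, and 1 of the 26 was 2-fold higher and 0 were 2-fold lower after cuts. Of the 4 members under 50 CPM on average, Npy, a neuropeptide, was at 30.03 after cuts (5 UMIs) and 14.4 after IOT, with a subtracted difference of 1.84. Ecel1, a peptidase of injured neurons, was at 36.0 (6 UMIs) and 19.6, with a difference of 1.86 that rests on a rule-negative IOT sum at the floor. Sox11, a transcription factor of axon growth, was at 619 after cuts (505 to 750) and 567 after IOT (520 to 616), with effects of 2.97 and 2.60. The 4 IOT libraries ranged from 2.47 to 3.07 for Sox11, so the cuts lay inside their range. Lmo7 (3.41 and 3.31), Rhoq (2.14 and 2.01) and Itga7, a laminin receptor subunit (2.29 and 2.57), lay as close together.

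Members of the induced list that lay apart from the list did so in both directions. Jun, the AP-1 partner of ATF3, had an effect of 2.09 after cuts, above the IOT range of 0.95 to 1.82, and its subtracted difference was 0.92. The neuropeptide galanin (Gal) was at 859 after cuts (724 to 1012) and 326 after IOT at day 2 (291 to 364), with effects of 4.23 and 3.31. Day 7 after IOT gave 4.29 for Gal, and its highest level was in scratch lesions, at 2153 (2013 to 2301). Lower after cuts were the GDNF receptor Gfra1 (effects of 1.54 and 2.44), the transcription factor Pou2f1 (1.17 and 2.06), the matrix protease Mmp16 (1.81 and 2.70) and the calcium channel subunit Cacna2d1, which binds gabapentin (1.99 and 2.71). Cacna2d1 stood at 2541 after cuts (2304 to 2795, 423 UMIs) and 5167 after IOT (5025 to 5312), and the subtracted differences of the 4 genes were -0.90, -0.89, -0.89 and -0.72. For Gfra1 and Pou2f1 the cuts lay below all IOT libraries.

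**Figure D5:**
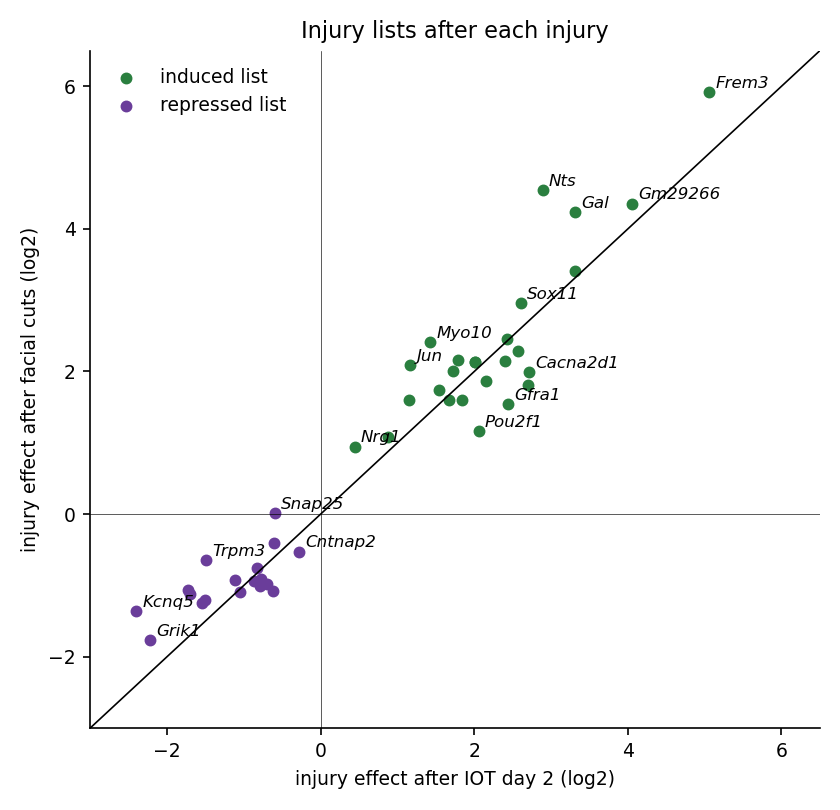
Injury effect (log2 of injury-profile over rule-negative nuclei) after facial cuts against that after IOT day 2 for the measured genes of the induced (green) and repressed (purple) lists, with the line of equal effects. The 26 induced genes have a median of 2.11 on both axes, and the 18 repressed genes medians of -0.996 and -0.959.

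Genes of the repressed list stood, by their median, below rule-negative nuclei after both injuries. Like the induced list, it was drawn from genes of the study and earlier results on these libraries, which favours this direction. The 18 measured genes of the repressed list had a median injury effect of -0.996 after cuts and -0.959 after IOT at day 2, and a median subtracted difference of 0.19, with 1 gene (Kcnq5) 2-fold higher and 0 lower. The nociceptor sodium channel Scn10a was at 240 in cuts nuclei (effect -1.21) and 149 in IOT day 2 nuclei (effect -1.51), and later IOT effects were -3.12, -2.51 and -1.16. Calca, the CGRP gene, shows what the subtraction removes. It was at 697 after cuts (576 to 836) and 185 after IOT (159 to 215), yet at 1183 and 330 in rule-negative nuclei, so the effects were -0.76 and -0.83. Grik1, a kainate receptor subunit, had effects of -1.77 and -2.22, and the opioid receptor Oprm1 was at 30.03 (5 UMIs) and 57.7, too few UMIs to place the cuts.

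Among gene groups, the background for a 2-fold call was 3.53% of genes higher and 3.44% lower. Of 22 potassium channels, 5 were 2-fold higher after cuts (Kcnd2 at 1.34, Kcnc4 at 1.28, Kcnk2 at 1.24, Kcna2 at 1.07 and Kcnq5 at 1.04, on 10 to 34 UMIs) and 1 was lower (Kcnh8, -1.23 on 4 UMIs), with a median of 0.26. Of these, Kcnc4 is among the genes past 2-fold under all 4 depth settings, and Kcnh8 was at 0.60 with 1000 UMIs. The 8 sodium channels had a median of 0.34 and no 2-fold call, the 9 calcium channels a median of -0.25 and none. Of 27 synaptic release genes and 15 identity transcription factors none was past 2-fold either way (medians 0.10 and 0.19). Of 13 transcription factors of regeneration 1 was lower (Bach1, -1.07), and of 21 growth and cytoskeleton genes 1 was lower (Palld), with medians of 0.25 and -0.11. Gap43, a growth cone protein of this list, was at 450 after cuts (354 to 565) and 517 after IOT (473 to 565), but its rule-negative levels were 251 and 161, which gives effects of 0.84 and 1.69.

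The 8 neuropeptides had a median of 0.51, with Nts the only member past 2-fold. Of 17 guidance genes Nrp1, a receptor of class 3 semaphorins, was higher (1.04) and Unc5c lower (-1.04). Of 13 integrin and matrix genes Itga6 was lower (-1.02, 6 UMIs). Of 10 stress and cell death genes Bcl2 and Ndrg1 were higher (1.55 and 1.03) and the apoptosis effector Bax lower (-1.17). Bax was higher by 0.54 before subtraction, so its direction depends on the rule-negative nuclei. The 11 trophic factor genes, 7 inhibitory receptors and 2 cytokine signals had no 2-fold call, with medians of 0.10, 0.24 and 0.08. Of 7 sensory transduction genes 1 (Asic1, 1.497 on 15 UMIs) was higher, and the 1 measured immediate early gene (Jund) was at -0.15.

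Injured nuclei were divided by genes of the large-neuron-like class I1 and the small-neuron-like class I2 of the study. More UMIs of I1 genes (Pcdh7, Piezo2, Ntng1, Fat3) than of I2 genes (Tshz2, Rgs4, Cacna1c) were found in 59.5% of cuts nuclei (49.7 to 68.7%, 66 of 111) and 69.2% of IOT day 2 nuclei (65.5 to 72.8%, 448 of 647). The reverse held for 31.5% (23.0 to 41.0%) and 24.3% (21.0 to 27.8%), and for 46.7% after scratch lesions (40.6 to 52.8%). In rule-negative nuclei the I1 shares were 55.0% and 57.2%. Of 16 measured large neuron genes 1 was higher (Fam19a1, 1.23) and 1 lower (Spp1, -1.19 on 11 UMIs), with a median of 0.51. Spp1 was higher by 0.79 before subtraction, so its direction depends on the rule-negative nuclei. Of 10 measured small neuron genes 1 was higher (Fam19a4, 2.30 on 14 UMIs) and 1 lower (Htr1f), with a median of 0.34. Summed over the small neuron list, the profile nuclei held 3441 CPM after cuts and 2176 after IOT, and the rule-negative nuclei 5479 and 3881.

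Markers of other cells were present on both sides. The summed satellite glia list was at 2066 in cuts nuclei (1853 to 2296, 10 of 12 markers detected) and 1837 in IOT nuclei (1753 to 1924, 10 of 12), and at 2012 and 1724 in rule-negative nuclei. Within it Cadm2 was lower after cuts (685 against 1368), and Apoe (859 against 159) and Glul (264 against 136) were higher. Cadm2 alone gave 1368 of the 1837 in IOT nuclei, so that sum rests mostly on 1 gene. In rule-negative nuclei Cadm2 was at 1012 and 1331 and Apoe at 662 and 144. The close sums thus hide differences in both directions and do not show a like amount of satellite glia transcripts. Schwann cell markers summed to 1339 (1169 to 1527, 11 of 12) and 1154 (1087 to 1224, 12 of 12), fibroblast markers to 216 and 150 and vascular markers to 168 and 160. Leukocyte markers summed to less after cuts, at 96.1 (54.9 to 156) against 246 (216 to 279), and in rule-negative nuclei to 44.8 against 145. Only 1 of them, Cx3cr1, passed the filter of 50 CPM, with a log2 difference of -2.82 before subtraction and -0.40 after it. The sum is thus weighted to a single gene. Red cell markers summed to 96.1 (54.9 to 156) and 51.5 (38.2 to 67.9). Of these markers the vascular gene Rgs5 was 2-fold higher after cuts (16 UMIs), and the part of other cells in the differences was not tested.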

How the data were processed

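Nuclei of mouse trigeminal ganglia were selected with magnetic beads against NeuN and run on 10x Genomics version 2 chemistry. The deposited values are raw UMI counts for each gene and nucleus. Before deposit, the authors aligned reads to an mm10 reference that keeps intronic sequence, dropped outlier nuclei by gene number and mitochondrial content, and took out clusters of non-neuronal cells. The sources used here name no doublet caller, and none was run. Cell Ranger 2.1.0, Seurat 2, STAR 2.5.3a and bcl2fastq 2.17 are listed in the submitters' processing notes. Which gene annotation was used is not given in these sources. The library totals were 22003842 UMIs in 8660 nuclei after cuts and 19064093 UMIs in 4611 nuclei after IOT at day 2, and 19304 genes were in both.

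Members, gene lists and comparisons were chosen with earlier results of these data known. The rule was applied to counts as deposited. Nuclei were then thinned without replacement to 1500 UMIs, the lower 10th percentile of profile nuclei rounded down to 100, and summed per library. A log2 difference compares CPM, with sums under 3 UMIs set to 3 (the floor). The subtracted difference is that of profile nuclei minus that of nuclei with 0 UMIs of the 6 genes. Genes entered at a mean of 50 CPM in the 2 profile groups, and 2-fold marks a call. With 1 library per injury no test was made. Some results flagged by the same criteria are not reported here. The named genes were the 6 rule genes, members of the induced and repressed lists at 20 CPM or more, the 10 largest subtracted differences each way and up to 4 members of each other list. Those of the 10 largest at the floor are given apart. Genes past 2-fold under all 4 depth settings were added after their values were seen. Gene spans and coordinates come from GENCODE vM21, in which 97.7% of genes were found, and promoters from RefSeq. Intervals are Clopper-Pearson for shares and exact Poisson for counts, and UMIs were assumed independent. The sums were tested on simulated data. Alternatives changed the depth, draw, rule, subtraction, filter, centring, class of neuron and transection library. Versions of numpy, scipy and Python were 2.4.6, 1.17.1 and 3.11.15.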

Additional observations from a re-analysis of the deposited data

Results flagged for a closer look

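Flagged here are genes whose injury effect (log2 of injury-profile over rule-negative CPM) had the same sign in all 4 IOT libraries and the opposite sign after facial cuts. Single genes were taken only from the named genes not at the floor. With 1 library of cuts the difference was not tested. Among the 4170 genes not at the floor, 136 (3.26%) were above 0 in all IOT libraries and below 0 after cuts, and 249 (5.97%) the reverse. The calcium channel subunit Cacna2d3 was at -0.26 after cuts on 41 UMIs, between 0.12 and 0.45 after IOT and at -0.43 after scratch lesions. The GABA-A receptor subunit Gabrg1 was at -0.33 after cuts on 6 UMIs, between 1.95 and 2.51 after IOT and at -1.90 after scratch lesions. The serotonin receptor Htr1f was at -0.91 after cuts on 11 UMIs, between 1.17 and 1.72 after IOT and at 0.20 after scratch lesions. The homeobox factor Pbx3 was at -0.36 after cuts on 12 UMIs, between 0.11 and 0.51 after IOT and at -0.36 after scratch lesions. Rhbdd3 was at -0.87 after cuts on 4 UMIs, between 0.22 and 1.43 after IOT and at 0.88 after scratch lesions. Txndc16 was at -0.89 after cuts on 3 UMIs, between 0.18 and 1.66 after IOT and at 0.72 after scratch lesions. The netrin receptor Unc5c was at -0.27 after cuts on 42 UMIs, between 0.53 and 0.96 after IOT and at -1.88 after scratch lesions.

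The reverse sign, below 0 after IOT and above it after cuts, is given next for named genes. Many named genes were chosen from lists of channels, receptors and neuron classes, so the kinds of gene seen here follow from that choice. The acid-sensing channel Asic2 was at 0.20 after cuts on 96 UMIs, between -1.60 and -0.46 after IOT and at 0.18 after scratch lesions. The CGRP gene Calcb was at 0.03 after cuts on 23 UMIs, between -2.34 and -0.44 after IOT and at 0.05 after scratch lesions. Fam19a4 was at 0.15 after cuts on 14 UMIs, between -2.16 and -1.01 after IOT and at 0.93 after scratch lesions. The potassium channel Kcnc4 was at 0.44 after cuts on 16 UMIs, between -2.32 and -0.84 after IOT and at 0.37 after scratch lesions. The potassium channel Kcnk2 was at 0.05 after cuts on 13 UMIs, between -1.18 and -0.49 after IOT and at -0.51 after scratch lesions. The semaphorin receptor Nrp1 was at 0.22 after cuts on 27 UMIs, between -1.94 and -0.02 after IOT and at -0.29 after scratch lesions. The neurotrophin-3 receptor Ntrk3 was at 0.24 after cuts on 112 UMIs, between -0.95 and -0.08 after IOT and at -0.35 after scratch lesions. The G protein regulator Rgs4 was at 0.33 after cuts on 144 UMIs, between -1.52 and -0.25 after IOT and at 0.22 after scratch lesions.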

How the results depend on the processing

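The counts of genes past 2-fold moved most. With no thinning 35 genes were higher and 88 lower after cuts, with 1000 UMIs per nucleus 267 were higher, and a stricter rule (8 UMIs over 3 genes) or the rule on thinned counts gave 533 and 478 higher. Without subtraction the counts were 1060 and 490, with a filter of 20 CPM 694 and 334, and with a filter of 200 CPM 4 and 18. Nuclei of I1 or of I2 alone gave 336 and 621 higher, and IOT day 7 in place of day 2 gave 390 higher. The stricter rule, the rule on thinned counts and the I2 nuclei left 37, 49 and 35 cuts nuclei, where the main setting had 111. With fewer nuclei the floor of 3 UMIs is worth more CPM and raises genes with fewer cuts UMIs towards higher. Genes lower after cuts numbered 161, 193 and 179 in these settings. The part of the floor was not tested. Centring on the median gave 108 higher and 189 lower, where the main split was 149 and 145. The ratio of the shares (IOT over cuts) was 7.62 with the rule on thinned counts, 13.04 at 1000 UMIs and 18.5 with the stricter rule. The median of small neuron list members was 0.0591 with no thinning and 1.30 without subtraction, and against IOT day 7 the repressed median was 0.60 and the large neuron median 0.85. The induced median ranged from -0.08 to 0.26.

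Directions turned for single genes. Without subtraction Bax was at 0.54, Spp1 at 0.79, Gm44767 at -1.46, Gm17058 at -3.36, Pla2g10 at -3.03, Pde6a at -2.52 and Prss41 at -3.93. With 1000 UMIs Kcnh8 was at 0.60, and in I1 nuclei at 0.32. In I2 nuclei Gabrg1 was at 0.081, Tsc22d4 at 0.74, Palld at 0.018 and Unc5c at 0.15. Tsc22d4 held 3 UMIs and Gabrg1 6 UMIs over all cuts profile nuclei of the main setting. The I2 value of Tsc22d4 is thus set by the floor and carries no direction, and that of Gabrg1 lies at or near the floor. Against IOT day 7 Npy was at -0.48, Nts at -0.21 and Sprr1a at -0.063. Leaving out genes at the floor, an alternative chosen after seeing the data, gave 140 higher and 131 lower. The causes were not tested. In the cuts nuclei 1 UMI is worth 6.01 CPM, which limits what low genes can show. No paired analysis was possible because each injury has 1 library.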

Other observations

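Of the 10 largest subtracted differences upward, Gm17058, Pla2g10, Pde6a and Prss41 held 0 or 1 UMI in the cuts nuclei. Their values come from the floor and carry no direction.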
